A study of Mus musculus with 5 samples.

Results

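Nfkbia, Nfkbie, Nfkbiz, Nfkb1, Tnfaip3, Ier3 and Zfp36, feedback genes of the NF-κB response, and the cytokine gene Tnf were followed through 5 single-cell RNA libraries of mouse bone marrow (BM). They are 8 of the 31053 genes in the count matrices, taken by symbol. Their levels in these libraries, including lower levels in sorted monocytes after cyclophosphamide than in naive sorted monocytes, were known when the list was drawn up, so the genes count as chosen by measured UMI levels of these same libraries, and every comparison here is a description, not a test. The first 3 libraries held whole BM of BALB/c mice that were left untreated (naive) or were collected on day 2 (D2 CTX) or day 7 (D7 CTX) after intraperitoneal cyclophosphamide (CTX, an alkylating chemotherapy drug) at 150 mg/kg, with equal numbers of cells of 3 mice pooled in each. The other two held monocytes sorted as CD11b+Ly6Chi from BM of naive mice (sorted naive) and of CTX-treated mice (sorted CTX). The labels give no day for sorted CTX, and the text of the study gives day 7. Mice were 4 to 8 weeks old, red cells had been lysed, and no other allele or agent is given for any group. Each group is 1 library, so no difference can be set against the spread between mice, and condition and library cannot be told apart.

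NF-κB is a family of dimeric transcription factors that waits in the cytoplasm, bound to IκB proteins. Signals from Toll-like receptors, the IL-1 receptor or TNF receptors activate the IκB kinase, the IκB is degraded and the dimers enter the nucleus. Among the first genes they switch on are their own brakes, which makes the pathway self-limiting and pulsed. Nfkbia encodes IκBα, the IκB that is degraded and resynthesized within this loop, and Nfkbie encodes its relative IκBε. Nfkbiz encodes IκBζ, a nuclear IκB protein that works as a cofactor at secondary targets. Nfkb1 encodes p105, the precursor of the p50 subunit. Tnfaip3 encodes A20, a ubiquitin-editing enzyme that shuts off signaling upstream of the kinase. Ier3 encodes a small stress-response protein that modulates survival. Zfp36 encodes tristetraprolin, which binds AU-rich elements of cytokine mRNAs and hastens their decay, and Tnf, the cytokine that starts the loop, is its best known target. Monocytes and neutrophils induce these genes quickly, and several of them are known to move when cells are handled.

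On GRCm38 (mm10, the build of the files) with GENCODE annotation, Nfkbia lies at chr12:55489410-55492647 on the minus strand, Nfkbie at chr17:45555703-45563169 on the plus strand, Nfkbiz at chr16:55811375-55838899 on the minus strand and Nfkb1 at chr3:135584655-135691547 on the minus strand. Tnfaip3 lies at chr10:19000910-19015657, Zfp36 at chr7:28376784-28380253 and Tnf at chr17:35199381-35202007, each on the minus strand, and Ier3 at chr17:35821684-35822923 on the plus strand. The reference is of the C57BL/6J strain, not of BALB/c. RefSeq windows of the same build (GRCm38.p6), searched on both strands over the 250 bases before each start for the 10-letter NF-κB consensus, existed for 6 of the 8 genes, all but Nfkbiz and Nfkb1. Of these 6, 4 held a match, as did 3.90% of all 32851 windows. The matching stretches are shown because these are the letters through which the loop is classically closed, 5′ to 3′ on the gene's strand with the match in capitals.

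Nfkbia, chr12:55492648-55492701, minus strand: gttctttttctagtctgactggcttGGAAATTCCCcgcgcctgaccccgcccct
Nfkbie, chr17:45555569-45555628, plus strand: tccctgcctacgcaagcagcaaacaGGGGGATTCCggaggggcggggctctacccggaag
Tnfaip3, chr10:19015516-19015545, minus strand: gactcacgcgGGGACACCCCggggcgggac
Tnfaip3, chr10:19015411-19015432, minus strand: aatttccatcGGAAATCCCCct
Ier3, chr17:35821596-35821655, plus strand: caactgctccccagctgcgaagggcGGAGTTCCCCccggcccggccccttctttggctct

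Both Tnfaip3 stretches belong to 1 window, whose start lies inside the GENCODE gene. The windows of Zfp36 and Tnf held no match, which says only that these letters are absent there. A match is a description of the letters, and binding was not measured.

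At the other end of the transcript, the AU-rich nonamer TTATTTATT, the core of the element that tristetraprolin reads, was counted in the longest annotated 3′ UTR of each gene. Tnf held 5 copies in 764 bases, and Nfkbia, Tnfaip3 and Zfp36 itself held 1 each. Nfkbie, Nfkbiz, Nfkb1 and Ier3 held none. At least 1 copy was present in 3.98% of 2359 genes with a 3′ UTR within 20% of the length of that of Tnf, and in 7.66% of all 21020 genes with a 3′ UTR. The densest stretch of the Tnf 3′ UTR, with all its bases inside overlapping nonamers, 4 of them whole, reads as follows.

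Tnf, chr17:35199678-35199707, minus strand: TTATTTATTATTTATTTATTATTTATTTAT

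The libraries held 2223 to 8605 barcodes and 22694817 to 68459527 UMIs. Of these barcodes 1891 to 8290 were kept, with at least 200 genes and under 20% mitochondrial UMIs, and the median depth of kept cells was 3953.5 UMIs in naive, 3033.5 in D2 CTX, 7189.5 in D7 CTX, 10299 in sorted naive and 9694 in sorted CTX. Pairs of libraries shared 2 to 16 barcodes. Cells were assigned to classes by marker gates, a gate being a limit on the mean level of fixed marker genes in a cell. The naive, D2 CTX and D7 CTX monocyte gates held 495, 142 and 720 cells. All 8 monocyte markers, among them Csf1r, Ccr2 and Ly6c2, were detected in both sorted libraries, with a summed level of 33739 CPM (UMIs of the gene scaled to a library total of 1e+06) in sorted naive and 32765 CPM in sorted CTX, so the label of the sort was borne out. Markers of other types differed between the sorted libraries. The GMP list (Mpo, Elane, Prtn3, Ctsg, Kit, Cd34) stood at 1566 CPM in sorted naive and 2757 in sorted CTX with 6 of 6 markers detected in each, the neutrophil precursor list at 1150 and 1881 with 7 of 7 in each, and the dendritic MHC class II list at 198 and 69.1 with 7 of 7 in each. The mature neutrophil list was at 193 and 275 CPM with 7 of 7 in each, the plasma cell list at 408 and 131, the T list at 2.78 and 5.94, and the basophil list at 0.673 and 1.15. A level below is the summed UMIs of a group of cells, given in CPM with its exact Poisson 95% interval. Differences are log2 ratios with 1 CPM added, whose 95% interval comes from the counts alone, and all intervals cover counting error only. They say nothing on variation between mice.

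Monocytes were compared first, since the study sorted them before and after CTX. In sorted cells 7 of the 8 genes had a log2 ratio below 0 after CTX, all but Nfkb1. Of the 8, 5 were at least 1 log2 unit lower in sorted CTX, where 0.811% of 5549 genes with enough UMIs were that much lower and 0.144% that much higher. Since values of this comparison were known when the genes were listed, nothing is read from that contrast of shares. The median log2 ratio was -1.68 over the 8 genes and 0.03 over all genes compared. Tnf and Nfkbie reached 20 CPM only in sorted naive.

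Nfkbia stood at 120.5 CPM in the naive, 115 in the D2 CTX and 105 in the D7 CTX monocyte gate, at 613 (603 to 623) in sorted naive and at 128 (124 to 132) in sorted CTX. Sorted naive was thus the only one of the 5 with a high level, and sorted CTX was near the unsorted monocytes. The log2 ratio of sorted CTX over sorted naive was -2.25 (-2.31 to -2.21), the largest difference among the 8. Its relative Nfkbie was at 12.2 (8.96 to 16.3), 7.74 (4.33 to 12.8) and 12.5 CPM (9.82 to 15.7) in the 3 gates, 20.9 in sorted naive and 14.8 in sorted CTX, a log2 ratio of -0.46 (-0.68 to -0.30). The third IκB gene, Nfkbiz, was at 58.5 (51.0 to 66.8), 93.5 (80.3 to 108) and 67.4 CPM (61.0 to 74.4) in the gates, 199 in sorted naive and 56.4 in sorted CTX, a log2 ratio of -1.80 (-1.90 to -1.74). The classical and the nuclear IκB gene thus shared the pattern of one high library, while Nfkbie differed less.

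Nfkb1, the subunit gene of the list, did not follow them. It was at 154 CPM (141 to 167), 164 (146 to 183) and 129 (119.8 to 138) in the naive, D2 CTX and D7 CTX monocyte gates, 140.0 (135 to 145) in sorted naive and 144 (139.5 to 148) in sorted CTX. The intervals of the sorted libraries overlapped, and the log2 ratio of 0.04 had an interval from -0.03 to 0.11.

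Tnfaip3 was at 13.8, 11.9 and 16.9 CPM in the gates, with overlapping intervals, at 85.2 (81.4 to 89.1) in sorted naive and at 20.2 (18.5 to 21.9) in sorted CTX. This was a log2 ratio of -2.03 (-2.22 to -1.94). Ier3 was at 30.3 (25.0 to 36.4), 42.9 (34.1 to 53.1) and 51.4 CPM (45.8 to 57.5) in the gates, 81.0 in sorted naive and 24.2 (22.5 to 26.1) in sorted CTX, with a log2 ratio of -1.70 (-1.87 to -1.61). Sorted CTX had the lowest Ier3 level of the 5, with an interval that overlaps that of the naive gate, whereas D7 CTX had the highest of the unsorted gates.

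Zfp36 was at 352 (334 to 372), 346 (321 to 374) and 384 CPM (369 to 400.3) in the gates, 953 (941 to 966) in sorted naive and 615 (606 to 624) in sorted CTX. Its log2 ratio between the sorted libraries, -0.63 (-0.66 to -0.60), was smaller than those of Nfkbia and Tnfaip3, and it stayed above its unsorted level in sorted CTX. Tnf, the target of its product, was at 9.57 (6.71 to 13.3), 4.65 (2.12 to 8.82) and 13.2 CPM (10.4 to 16.5) in the gates, 60.5 (57.3 to 63.8) in sorted naive and 18.4 in sorted CTX, a log2 ratio of -1.67 (-1.87 to -1.57). Summed over the 8 genes, the level was 2153 CPM in sorted naive and 1021 CPM in sorted CTX, against 751 to 785 CPM in the 3 gates.

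**Figure D1:**
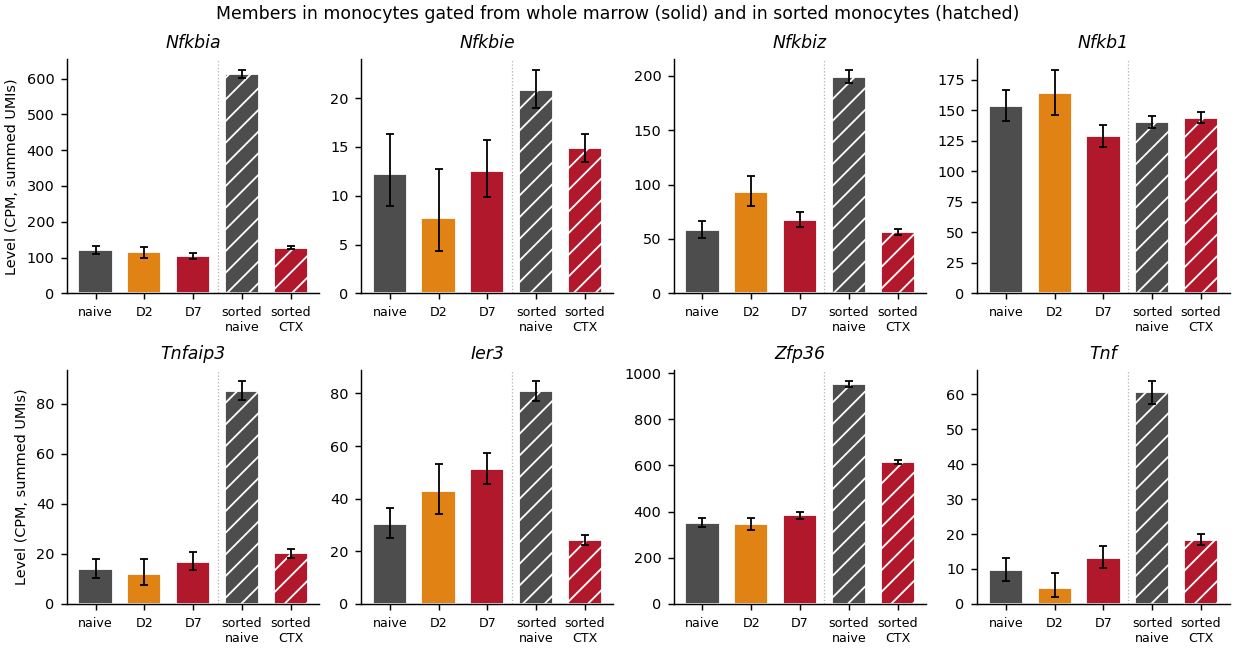
Level of each gene in CPM (UMIs summed over cells, linear axis from 0, own scale in each panel) in the naive, D2 CTX and D7 CTX monocyte gates (solid bars) and in sorted naive and sorted CTX monocytes (hatched bars), with exact Poisson 95% intervals as error bars. Sorted naive is the highest bar for 7 genes, from Nfkbie at 20.9 CPM to Zfp36 at 953 CPM, and Nfkb1 at 140.0 CPM is the exception.

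The sorted cells are a mixture, so they were divided by marker scores into non-cycling monocytes (1311 cells in sorted naive and 1578 in sorted CTX), cycling monocytes (326 and 528) and azurophil-rich cells with high GMP granule genes (174 and 334). Within each of these groups Nfkbia, Nfkbiz, Tnfaip3 and Tnf were at least 1 log2 unit lower in sorted CTX. The share of all genes past that limit was not counted within the groups, so nothing is read from this number of genes. All 8 genes passed the filter in non-cycling, 7 in cycling and 5 in azurophil-rich cells, where Tnfaip3 and Ier3 had too few UMIs. For Nfkbia the level went from 767 CPM in sorted naive to 157 in sorted CTX among non-cycling cells, from 457 to 109.6 among cycling cells and from 305 to 73.9 among azurophil-rich cells. Tnf went from 71.4 to 17.9, from 48.5 to 20.5 and from 45.1 to 17.5 CPM in the same order. All 3 groups had the difference, and in each library the non-cycling cells held the highest Nfkbia. Nfkbiz was at 271 and 80.5 CPM, 118 and 36.8 CPM, and 56.9 and 19.9 CPM. Tnfaip3 was at 108 and 25.0, 68.7 and 18.5, and 34.8 and 11.5 CPM. Ier3 went from 115 to 34.0 CPM in non-cycling and from 37.7 to 10.2 CPM in cycling cells. In azurophil-rich cells, where it did not pass the filter, Ier3 went from 26.8 to 14.9 CPM, a log2 ratio of -0.81. The median log2 ratio of the 8 genes was -1.73 in non-cycling, -1.43 in cycling and -1.06 in azurophil-rich cells. Over all genes compared the median was 0.04, 0.02 and -0.02 in the same order.

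**Figure D2:**
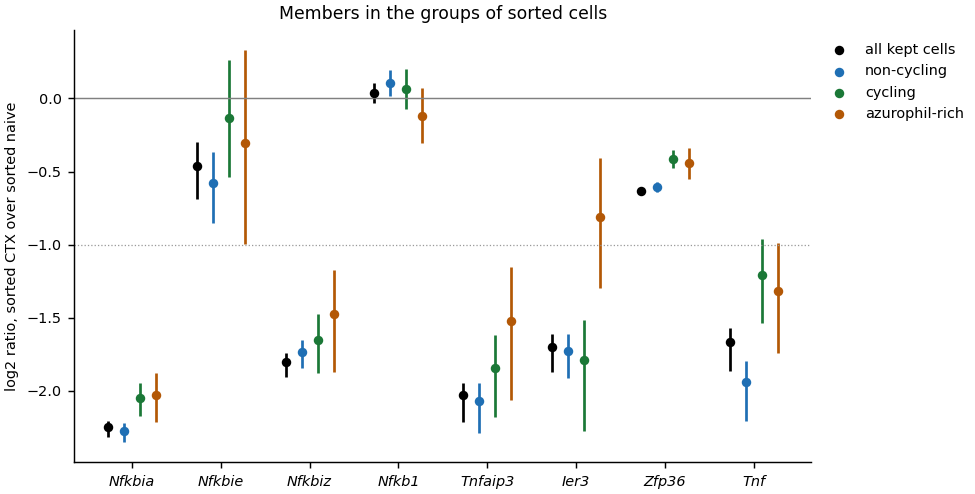
Log2 ratio of sorted CTX over sorted naive for each gene in all kept cells, non-cycling monocytes, cycling monocytes and azurophil-rich cells (colors), with 95% intervals from the counts as vertical lines and the 1 log2 unit limit dotted. Nfkbia, Nfkbiz, Tnfaip3 and Tnf lie under the limit in every group, Ier3 leaves it in azurophil-rich cells at -0.81, and Nfkb1 lies near 0 throughout. Tnfaip3 and Ier3 had too few UMIs for the filter in azurophil-rich cells.

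The unsorted monocytes, gated from whole BM on 8 markers, gave another picture. None of the 8 genes was 1 log2 unit apart at D2 CTX or D7 CTX. Tnf, Nfkbie and Ier3 passed this limit under some alternative processing, given at the end. Of the 8, 4 passed the filter at D2 CTX and 5 at D7 CTX, whereas the shares below cover only genes that passed. Over all genes compared in the gate, 2.67% of 4002 were that much higher and 1.17% that much lower at D2 CTX, and 0.389% of 5403 were that much higher and 0.278% that much lower at D7 CTX. At D2 CTX, Nfkbiz had a log2 ratio of 0.67 (0.38 to 0.97) and Ier3 had a ratio of 0.49 (0.07 to 0.92), whereas the intervals of Nfkbia (-0.07), Nfkbie (-0.60), Nfkb1 (0.09), Tnfaip3 (-0.20), Zfp36 (-0.02) and Tnf (-0.91) included 0. At D7 CTX, Ier3 was higher at 0.74 (0.45 to 1.08) and Zfp36 at 0.12 (0.03 to 0.22), and Nfkb1 was lower at -0.25 (-0.41 to -0.10) and Nfkbia at -0.19 (-0.37 to -0.02). The D7 CTX ratio of Tnf was 0.42 with an interval from -0.13 to 1.07. The gate of D2 CTX rests on 142 cells, and 21 of these also passed another gate. In the same gates the summed monocyte markers were at 31081, 20031 and 35804 CPM for naive, D2 CTX and D7 CTX with 8 of 8 detected in each, the mature neutrophil list at 703, 1066 and 1060 CPM with 7 of 7 in each, and the neutrophil precursor list at 867, 1393 and 1505 CPM with 7 of 7 in each. Their part in these ratios was not tested. In the D2 CTX erythroid gate, 64 cells that should lack the myeloid members, Nfkbiz was at 52.3 CPM and Ier3 at 44.3 CPM (22.1 to 79.2). The Ier3 level of the D2 CTX monocyte gate, 42.9 CPM, did not exceed that background. With the erythroid level of each library subtracted, the Nfkbiz ratio at D2 CTX turned from 0.67 to -0.33, so neither ratio is read as a difference.

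Sorted and unsorted monocytes of naive BM were then set side by side. Of the 8 genes, 6 were at least 1 log2 unit higher in sorted naive than in the naive gate, beside 2.24% of 5797 genes that much higher and 1.07% that much lower. The log2 ratios were 2.54 for Tnfaip3 (2.23 to 3.05), 2.54 for Tnf (2.18 to 3.18), 2.34 for Nfkbia (2.21 to 2.48), 1.75 for Nfkbiz, 1.43 for Zfp36 and 1.39 for Ier3. Nfkbie at 0.72 and Nfkb1 at -0.13 stayed under the limit. Tnfaip3, Tnf and Nfkbie reached 20 CPM only in sorted naive. The median was 1.59 over the 8 genes and -0.08 over all. For CTX, sorted cells over the D7 CTX gate gave 0 of 8 genes that much higher and 1 lower, Ier3 at -1.05 (-1.28 to -0.88), beside 0.896% of 5691 genes higher and 0.615% lower. Of the 8 genes, 6 passed the filter in that comparison, all but Tnf and Nfkbie. There the ratio of Nfkbia was 0.28, of Tnfaip3 0.24, of Tnf 0.45 and of Zfp36 0.68, and the median was 0.24 over the 8 genes. For Nfkbia and Tnfaip3, sorted naive was thus far from the 3 unsorted gates and sorted CTX was close to them. Sorting, antibody staining and the library itself cannot be told apart between sorted and unsorted cells.

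Immediate early genes, which answer growth factors and stress and also move when cells are handled, moved in the same comparisons. Of the 16 that could be compared between sorted naive and the naive gate, 12 were at least 1 log2 unit higher and 16 had a ratio above 0, with a median of 1.92. Atf3, a stress-response transcription factor, went from 119.9 to 1198 CPM (log2 ratio 3.31), Klf2, a quiescence-associated factor, from 203 to 1541 (2.92) and Fosb, an AP-1 subunit, from 57.2 to 374 (2.69). Between sorted CTX and the D7 CTX gate, 7 of 15 were that much higher and 15 of 15 were above 0, with a median of 0.75, led by Atf3 from 187 to 702 CPM (1.90), Fos from 1359 to 4105 (1.59) and Jund from 313 to 793 (1.34). Between the sorted libraries all 16 were below 0 in sorted CTX, with a median of -0.40 against -1.68 for the 8 genes, and 3 were at least 1 log2 unit lower. These were Hspa1a, a heat-shock chaperone, from 58.7 to 15.2 CPM (-1.88), Egr1 from 83.1 to 36.6 (-1.16) and Nr4a1 from 124 to 54.9 (-1.16). Hspa1a passed the filter only through sorted naive, here and in the comparison of sorted naive with the naive gate. The part of handling in the ratios of the 8 genes was not tested.

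Other genes of the pathway were taken from fixed lists, with the same limit of 1 log2 unit. Of the 19 listed cytokine and adhesion targets, 9 could be compared between the sorted libraries and 8 were lower in sorted CTX, with a median of -1.82. Cxcl2, a neutrophil-attracting chemokine, was at 888 CPM in sorted naive and 45.8 in sorted CTX (-4.25), and Ccrl2, a chemerin-binding receptor, at 178 and 43.6 (-2.01). Cxcl1, a chemokine related to Cxcl2, had 464 UMIs in sorted naive and 2 in sorted CTX, a count ratio whose log2 interval runs from -11.27 to -6.36. Cxcl1, Il1b and Icam1 passed the filter only through sorted naive. Cytokine targets were thus lower along with Nfkbia and Tnfaip3. Of the other IκB family members and brakes, 2 of 11 were lower. These were Dusp2, a phosphatase of MAP kinases, from 47.0 to 15.7 CPM (-1.52) and Socs3, a brake on cytokine receptors, from 48.8 to 16.7 (-1.49). Dusp2 and Socs3 passed the filter only through sorted naive. Of survival and other targets 2 of 7 were lower, Gadd45b, a stress-inducible gene, from 84.9 to 38.0 CPM (-1.14) and Marcksl1, which encodes a membrane- and actin-associated protein, from 21.2 to 9.64 (-1.06). Marcksl1 too passed the filter only through sorted naive. Of the 3 further NF-κB subunits none passed the limit, at a median of -0.39, nor did any of 13 kinases and adaptors (-0.07), 3 RNA decay relatives of Zfp36 (-0.07) or 4 receptors (-0.51). Among genes that passed the filter, the cytokine and adhesion targets thus had the lowest median of the lists.

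The same lists between sorted naive and the naive gate gave 7 of 9 cytokine and adhesion targets higher (median 2.07) and 5 of 11 brakes (0.27). Cxcl2 went from 53.5 to 888 CPM (4.03), Ccl2, a monocyte-attracting chemokine, from 39.1 to 302 (2.92), and Ccl3, an inflammatory chemokine, from 156 to 839.7 (2.42). Cxcl1 had 0 UMIs in the gate and 464 in sorted naive. Of the brakes, Socs3 went from 3.46 to 48.8 CPM (3.48), Dusp1, a MAP kinase phosphatase, from 194 to 847 (2.12) and Dusp2 from 14.4 to 47.0 (1.64). Of 3 subunits 1, Nfkb2 (p100), reached 1.01, 2 of 4 receptors passed, Cd14, a lipopolysaccharide co-receptor, at 1.67 and Tlr2, a Toll-like receptor, at 1.33, as did 1 of 14 kinases, Map3k8 at 1.27, and 1 of 7 survival genes, Gadd45b at 2.07. None of 3 RNA decay relatives did. Of the genes past the limit, Socs3, Dusp2, Nfkbid, Zc3h12a, Cxcl1, Nfkb2 and Gadd45b passed the filter only through sorted naive. Of the genes that passed the filter in sorted CTX over the D7 CTX gate, only Marcksl1 (-1.18) was past the limit outside the immediate early genes. Socs3, Dusp2, Nfkbid, Zc3h12a, Cxcl1, Il1b and Icam1 did not pass the filter there. The set of genes thus differs from that of the sorted naive comparison. Marcksl1 itself, at 9.64 CPM in sorted CTX and 23.2 in the gate, passed only through the gate.

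In the unsorted monocyte gate at D2 CTX, 4 of 6 cytokine and adhesion targets were higher and 1 lower than in naive. Ccl2 was at 39.1 CPM in naive and 114 at D2 CTX (1.52), Il1b, the IL-1β gene, at 23.7 and 62.0 (1.35), and Cxcl2 at 53.5 and 133 (1.30), whereas Ccl3 was at 156 and 76.9 (-1.01). The chemokine values thus did not move as one at D2 CTX. In mature neutrophils of D2 CTX, Cxcl2 was at 1293 and Il1b at 1218 CPM. Mature neutrophil markers were also higher in the D2 CTX monocyte gate than in the naive one. The part of neutrophil RNA in these ratios was not tested, so those of Cxcl2 and Il1b are not read as differences between monocytes. Cd14 was 1 of 4 receptors past the limit (1.16), Atf3 (1.09) and Ier2, an immediate early gene (-1.02), were past it in opposite directions among 14 immediate early genes, and no subunit, brake, RNA decay relative, kinase or survival gene was. At D7 CTX none of 6 cytokine targets passed, 1 of 7 brakes did (Dusp1, from 194 to 404 CPM, 1.05), and 3 of 15 immediate early genes were higher, Fosb at 1.54, Klf2 at 1.12 and Jun, an AP-1 subunit, at 1.04. No gene of the other 5 lists passed the limit at D7 CTX.

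**Figure D3:**
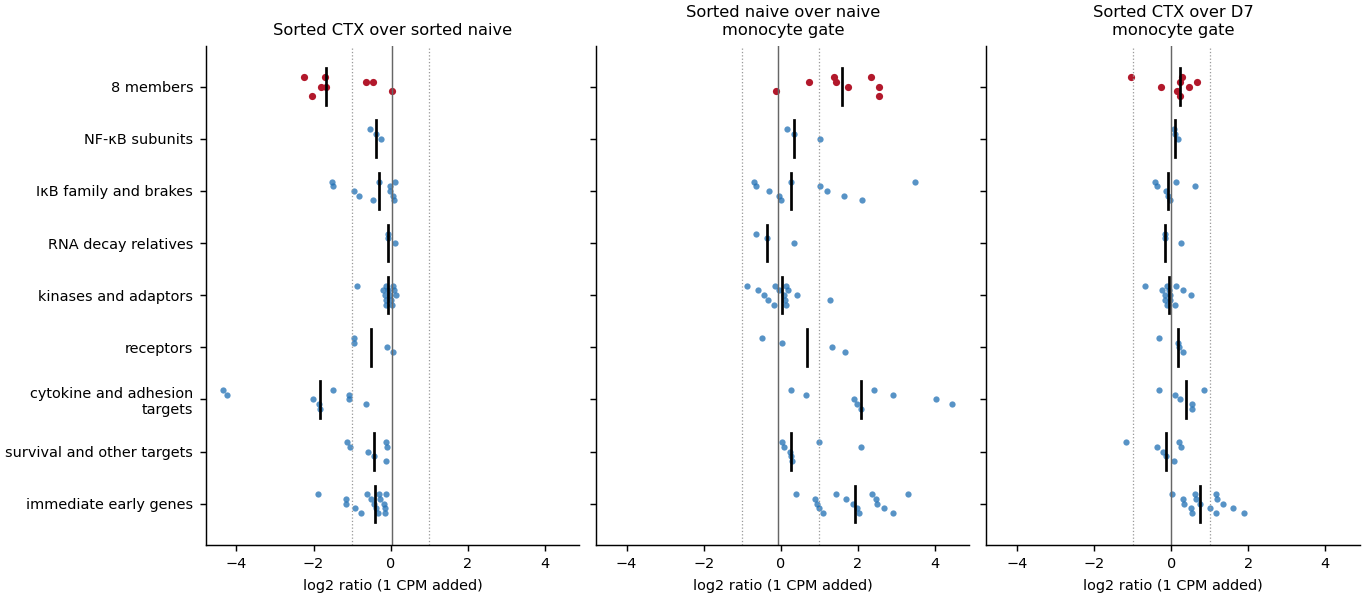
Log2 ratio (1 CPM added) of each compared gene, one point per gene, for the 8 genes (red) and the pathway lists (blue), with the list median as a black bar and the 1 log2 unit limits dotted, in sorted CTX over sorted naive (left), sorted naive over the naive monocyte gate (middle) and sorted CTX over the D7 CTX monocyte gate (right). The cytokine and adhesion targets have medians of -1.82 and 2.07 in the left and middle panels, where the kinases and adaptors lie at -0.07 and 0.02. Some genes of these panels passed the filter only through sorted naive.

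To give shares of cells at the same depth, cells were thinned to 2000 UMIs. This kept 1832 sorted naive cells (59 left out) and 2493 sorted CTX cells (71 left out). Nfkbia had a UMI in 63.8% of sorted naive cells (61.6 to 66.0) and in 23.3% of sorted CTX cells (21.6 to 25.0), with means of 2.12 and 1.24 UMIs in the cells that had any. Both the share of cells and the number per positive cell were thus lower. An even fall in level over all cells lowers both at a fixed depth. These values therefore do not tell fewer expressing cells from less transcript in each. Tnf had a UMI in 11.2% (9.83 to 12.8) and 3.29% (2.62 to 4.07), Tnfaip3 in 16.3% and 4.13%, Ier3 in 13.3% and 4.93%, and Nfkbiz in 35.2% and 12.4%. Zfp36 had one in 80.9% and 67.1%, with means of 2.71 and 2.12, so that its cells remained mostly positive. Nfkbie had one in 4.31% and 2.33%. Nfkb1 had one in 23.6% (21.7 to 25.6) and 26.6% (24.8 to 28.3), with intervals that overlap. Without thinning the shares were 94.7% and 66.1% for Nfkbia, 41.3% and 16.7% for Tnf, 55.0% and 17.4% for Tnfaip3, 34.5% and 15.0% for Ier3, 79.3% and 40.4% for Nfkbiz, 98.3% and 94.9% for Zfp36, 20.9% and 15.1% for Nfkbie, and 76.5% and 75.8% for Nfkb1. As a measure of free RNA, 320 hemoglobin-rich erythroid cells of naive whole BM, at the same depth of 2000, had a Nfkbia UMI in 4.69%, a Zfp36 UMI in 3.44%, a Nfkb1 UMI in 3.75% and a Tnf UMI in 0 cells, with an exact interval up to 1.15%. Median depth before thinning was 12782 UMIs in these erythroid cells. Every share of the sorted libraries given here exceeded the erythroid share of the same gene, although the erythroid cells come from a library that was not sorted.

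The monocyte gates were thinned to 2000 UMIs as well, with 481 naive, 140 D2 CTX and 706 D7 CTX cells. Nfkbia had a UMI in 23.7%, 22.1% and 19.8% of them, near its share in sorted CTX. Tnfaip3 had one in 2.91%, 5.71% and 2.69%. Tnf had one in 1.87% (0.859 to 3.52), 0.714% (0.0181 to 3.92, 1 cell) and 2.97% (1.85 to 4.51). Every Tnf share of the gates was under the 3.29% of sorted CTX (2.62 to 4.07), with overlapping intervals. Nfkbiz had one in 11.2%, 24.3% (17.4 to 32.2) and 13.6%, so that D2 CTX exceeded the 12.4% of sorted CTX. Ier3 had one in 7.07%, 11.4% and 9.35% (7.30 to 11.7), and the D2 CTX and D7 CTX gates lay above the 4.93% of sorted CTX (4.12 to 5.86). In D2 CTX erythroid cells at this depth Ier3 had one in 8.57% (1.80 to 23.1). The D2 CTX shares of Nfkbiz and Ier3 are thus not read as differences. Zfp36, at 48.6%, 52.1% and 50.6%, was in fewer cells than in sorted CTX.

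The number of the 8 genes with a UMI was then counted in each cell. This number rises with the level of each gene alone. It was not set against a count for genes that vary independently, so it does not show whether the members share cells. At 1000 UMIs per cell, 21.5% of 1870 sorted naive cells carried 3 or more members, and 79 of 2547 sorted CTX cells did. The naive, D2 CTX and D7 CTX monocyte gates had 2.02%, 7.04% and 2.23%. No member was found in 15.5% of sorted naive cells, 37.3% of sorted CTX cells, and 46.0%, 40.8% and 43.7% of the gates in the same order. The naive and D7 CTX gates and sorted CTX were thus alike in having few cells with several members. The D2 CTX value rests on 142 cells and takes in Nfkbiz and Ier3, whose ratios in that gate were not read as differences. Its place between the others is therefore not read. At 2000 UMIs, 3 or more members were in 48.6% of sorted naive and 13.5% of sorted CTX cells, and 5 or more in 5.90% and 0.321%. Non-cycling cells had 57.9% and 16.9% with 3 or more, cycling cells 31.5% and 9.37%, and azurophil-rich cells 9.94% and 3.08%.

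**Figure D4:**
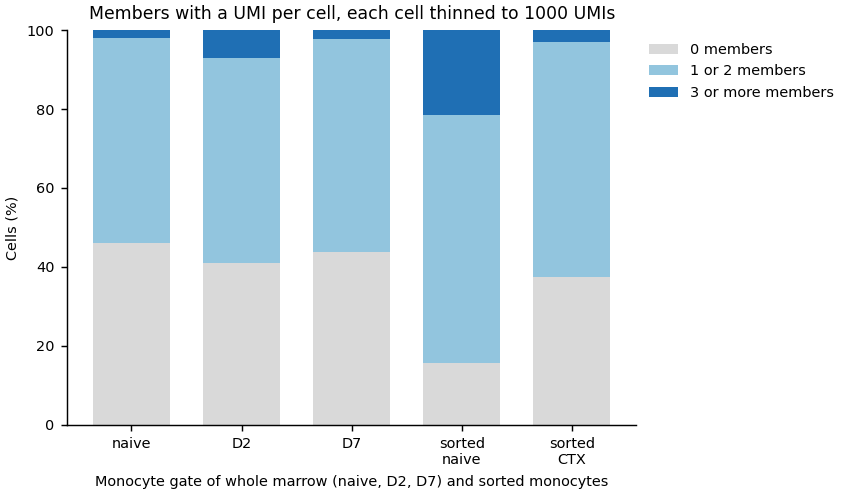
Share of cells in percent (bars stacked to 100) with 0, 1 or 2, and 3 or more of the 8 genes detected after thinning each cell to 1000 UMIs, in the naive, D2 CTX and D7 CTX monocyte gates and in sorted naive and sorted CTX. The dark part, 3 or more members, is 21.5% in sorted naive and 2.02% to 7.04% in the other bars.

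In sorted naive, cells with a Tnf UMI were richer in some of the brakes. At 2000 UMIs, 206 cells had Tnf, and 76.7% of them (70.3 to 82.3) had Nfkbia against 62.2% (59.8 to 64.5) of the 1626 others. For Tnfaip3 the shares were 24.3% (18.6 to 30.7) and 15.3% (13.6 to 17.2). For Ier3 they were 19.4% (14.2 to 25.5) and 12.5% (11.0 to 14.3), whose intervals touch. Nfkbiz at 40.3% and 34.6%, Zfp36 at 83.0% and 80.7% and Nfkb1 at 23.8% and 23.6% had overlapping intervals. In sorted CTX, 82 cells had Tnf, and Nfkbia was in 29.3% of them (19.7 to 40.4) and in 23.1% of the others, so no such difference was detectable at this depth. Among non-cycling sorted naive cells alone, the shares were 82.8% and 69.9% for Nfkbia and 27.4% and 17.1% for Tnfaip3. Cells are not replicates, and these intervals describe 1 library each.

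Across the classes of whole BM the members had different homes, read here for each gene on its own. In naive BM, Nfkbia was highest in basophils at 639 CPM (569.7 to 715, 78 cells), followed by non-cycling B lineage cells at 329 (312 to 347) and T cells at 259 (213 to 313). Its lowest level was in erythroid cells, at 19.1. Nfkbie was highest in non-cycling B lineage cells, at 83.7 CPM (75.0 to 93.1), above pDC at 44.0 (31.0 to 60.7). Across classes of naive BM Nfkbie thus peaked in B lineage cells and Nfkbiz in mature neutrophils. Nfkbiz stood at 370.1 CPM (346 to 395) in mature neutrophils, then at 175 in basophils and 140.3 in T cells, whose intervals overlap. Nfkb1 was highest in MHC class II-rich cells, at 304 CPM (245 to 374) in 48 cells, and stood at 173 CPM in NK cells, 157 in T cells, 154 in B lineage cells and 154 in monocytes, whose intervals overlap.

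Tnfaip3 was highest in T cells at 195 CPM (155 to 242), then in basophils at 106 (79.1 to 139.6) and B lineage cells at 49.3. Ier3 was in basophils above all, at 2034 CPM (1909 to 2166), with mature neutrophils next at 214 (196 to 234). Zfp36 was highest in mature neutrophils at 817 CPM (781 to 854), with basophils at 399.8 and monocytes at 352, whose intervals overlap. Tnf was low everywhere, at 39.6 CPM in basophils (23.8 to 61.8), 17.1 in immature neutrophils, 15.4 in cycling neutrophil precursors and 13.6 in mature neutrophils, with the last 3 not apart beyond counting error. In pDC, Tnf had 0 UMIs in naive and in D2 CTX, where 3 UMIs would be 3.57 and 2.36 CPM. Of the classes with at least 50 cells, basophils had the highest Nfkbia, Ier3 and Tnf in naive BM, on 78 cells of 1 library.

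**Figure D5:**
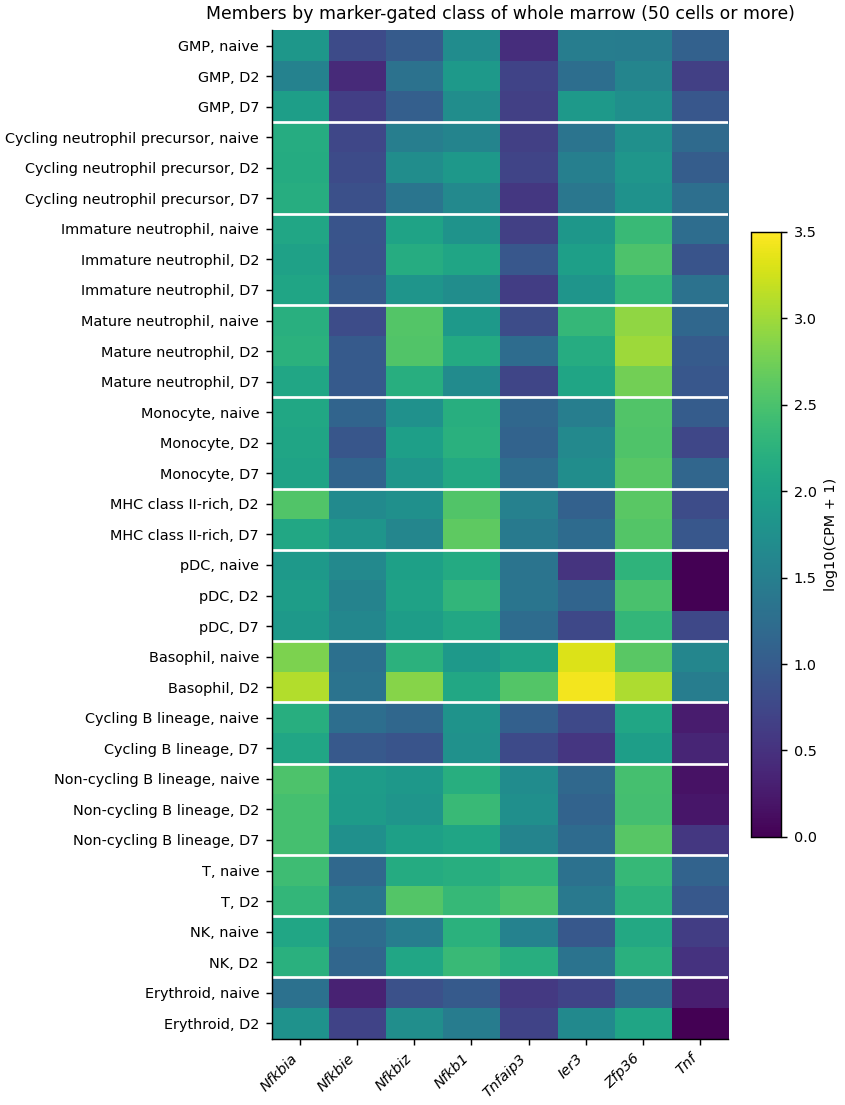
Level of each gene (columns) as log10(CPM + 1) by color in each class of whole BM with at least 50 cells (rows, naive, D2 CTX and D7 CTX), to be read down a column since transcripts differ in length. Basophils are brightest for Ier3, at 2034 CPM in naive and 2747 CPM in D2 CTX. In naive, mature neutrophils stand out for Nfkbiz and Zfp36, and non-cycling B lineage cells for Nfkbie. At D2 CTX basophils exceed mature neutrophils for Nfkbiz (739 against 355 CPM) and Zfp36 (1175 against 956 CPM). At D7 CTX Nfkbie is at 64.9 CPM in MHC class II-rich and 55.8 CPM in non-cycling B lineage cells, with overlapping intervals.

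At D2 CTX several lymphoid and basophil values were higher than in naive. The median of all genes was -0.09 in basophils, 0.04 in T cells, -0.18 in NK cells and 0.09 in non-cycling B lineage cells. In basophils (78 naive and 56 D2 CTX cells) Nfkbiz was at 175 and 739 CPM, a log2 ratio of 2.07 (1.72 to 2.45), Tnfaip3 at 106 and 365 (1.77), Zfp36 at 399.8 and 1175 (1.55) and Nfkbia at 639 and 1262 (0.98). Tnf, at 39.6 and 29.2 CPM, was not among them. In T cells (147 and 353) Nfkbiz was at 140.3 and 367 CPM (1.38, 0.99 to 1.81) and Tnfaip3 at 195 and 311 (0.67), while Nfkbia was at 259 and 205 (-0.34) and Zfp36 at 221 and 174 (-0.34). In NK cells (89 and 114) Tnfaip3 was at 34.5 and 155 CPM (2.14, 1.45 to 2.95) and Nfkbiz at 29.6 and 117 (1.95, 1.19 to 2.84). Nfkbiz was thus higher at D2 CTX in basophils, T cells and NK cells, and this held for Tnfaip3 too. In non-cycling B lineage cells (1469 and 1657) Nfkb1 differed most, at 154 and 235 CPM (0.60, 0.46 to 0.75), and Nfkbie was at 83.7 and 81.3 CPM. In the erythroid gate Nfkbiz was at 6.49 CPM in naive and 52.3 CPM in D2 CTX and Zfp36 at 16.3 and 113, so the level in cells that should lack them also differed between these libraries, and its part in the values above was not tested. The 3 classes had too few cells at D7 CTX (25 basophils, 14 T and 27 NK cells) to be compared.

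Among GMP (173 naive, 60 D2 CTX and 463 D7 CTX cells), the progenitors of neutrophils and monocytes, Ier3 was at 29.4, 17.4 and 77.8 CPM, 1.37 log2 units above naive at D7 CTX (1.01 to 1.81), and Zfp36 at 29.0, 37.6 and 54.2 CPM (0.88 at D7 CTX, 0.50 to 1.33). Nfkbia was at 70.7, 34.8 and 90.0 CPM. Its level was lowest at D2 CTX and highest at D7 CTX. MHC class II-rich cells (48, 67 and 50) held Nfkb1 at 304, 351 and 434 CPM, above every other class with at least 50 cells in each of the 3 libraries.

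Neutrophils were compared last. In mature neutrophils (1016 naive, 1529 D2 CTX and 1191 D7 CTX cells), Nfkbiz was at 370.1, 355 and 155 CPM and Ier3 at 214, 144 and 113. Zfp36 was at 817, 956 and 570 CPM, and Nfkbia at 161, 170.2 and 115. D7 CTX thus had the lowest level of these 4 genes. At D7 CTX 1 of the 8 genes, Nfkbiz, was at least 1 log2 unit lower (-1.25, -1.40 to -1.11), beside 2.12% of 2690 genes that much lower and 0.669% higher. Of the 8 genes, 5 passed the filter there. Ier3 was at -0.92, Nfkb1 at -0.62, Zfp36 at -0.52 and Nfkbia at -0.48. The median of all genes in this comparison was -0.14, and relative to it Nfkbiz was at -1.11 and Ier3 at -0.77. At D2 CTX the median of all genes was 0.38, with 5.13% of 2710 genes higher and 0.295% lower, and relative to this Nfkb1 was at 0.50, Nfkbiz at -0.44 and Ier3 at -0.95. None of the 5 members with enough UMIs there passed the limit. Tnfaip3, from 5.51 to 16.2 CPM, had a log2 ratio of 1.40 but too low a level for the filter.

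The pathway lists were counted in mature neutrophils too. At D7 CTX 3 of 5 cytokine and adhesion targets were lower, Ptgs2, the inducible cyclooxygenase, from 203 to 46.4 CPM (-2.11), Cxcl2 from 784 to 278 (-1.49) and Ccrl2 from 73.3 to 26.2 (-1.45), as were 2 of 4 receptors, Tlr2 (-1.36) and Il1r2 (-1.17), and 1 of 11 immediate early genes, Egr1 from 605 to 191 CPM (-1.66). No gene passed the limit among 2 subunits, 5 brakes, 2 RNA decay relatives, 6 kinases and adaptors or 4 survival genes. Il1r2 is the decoy receptor of IL-1. At D2 CTX 2 of 4 receptors were higher, Il1r2 at 1.15 and Cd14 at 1.12, along with Zfp36l1, a relative of Zfp36, from 12.3 to 50.4 CPM (1.95), Ccl3 (1.16), Irak3 (1.06) and Birc3 (1.03), each 1 of its list. No gene passed it among 2 subunits, 6 brakes or 12 immediate early genes, and the median of all genes was itself at 0.38. Irak3 is an inhibitory kinase of the Toll-like receptor pathway and Birc3 an inhibitor of apoptosis that NF-κB induces. Zfp36l1 passed the filter only through D2 CTX, where it was higher. In immature neutrophils (1660, 1081 and 3951 cells) Nfkbiz was at 106, 144 and 65.6 CPM, Nfkb1 at 62.3, 112 and 50.2, and Tnf at 17.1, 7.14 and 19.8. The log2 ratio of Tnf at D2 CTX was -1.15 (-1.80 to -0.74), in a comparison in which all genes had a median of 0.30. Tnf had too low a level for the filter there.

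Genes outside the list whose levels over classes were most like the mean of the members were looked for across 34 units, each a class of whole BM in 1 library with at least 50 cells, over 10717 genes. These units share 3 libraries, and the correlation is a description. The 10 highest were Zc3h12a (Pearson r 0.870), Cd53 (0.850), Rgs2 (0.846), Prickle3 (0.842), Tec (0.834), Tgoln1 (0.832), Ric8a (0.823), Pnrc1 (0.818), Arhgap15 (0.818) and Junb (0.807). Zc3h12a encodes regnase-1, an RNase that degrades inflammatory mRNAs. Cd53 is a leukocyte tetraspanin, Rgs2 a regulator of G protein signaling, Tec a tyrosine kinase, Junb an AP-1 subunit and Arhgap15 a Rac GTPase-activating protein. The members themselves ranged from 0.867 for Nfkbia and 0.830 for Nfkbiz to 0.515 for Nfkbie and 0.434 for Tnf. Between pairs, Nfkbiz and Zfp36 (0.804), Ier3 and Tnf (0.747), Nfkbie and Nfkb1 (0.705) and Nfkbia and Tnfaip3 (0.704) went together most, and Nfkbie and Tnf least (-0.300).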

How the data were processed

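Live whole BM cells and sorted monocytes were run on 10x 3′ chemistry. The authors deposited raw counts of UMIs per gene and barcode, made with Cell Ranger 3.1 on mm10 per the labels, and nothing was normalized in them. The sorted matrices held 2223 and 2978 barcodes. The study states a larger number of sorted cells. The members and lists were chosen with earlier results of these data known. Cells with at least 200 genes and under 20% mitochondrial UMIs were kept, as in the study, and doublets were kept. A cell's marker score was the geometric mean of 1 plus its UMIs per 10000 over the markers of a class. It joined the class with the highest score relative to a threshold set after scores had been seen. Cells within 25% above the monocyte threshold numbered 9 to 78 per library. Raw UMIs were summed per library and class and scaled to CPM. Comparisons took in genes that reached 200 UMIs in all compared libraries together and 20 CPM in 1 of them. With 1 library per group no p-value was computed. Intervals were exact Poisson, exact conditional or Clopper-Pearson, at 95%. Named genes were the 8 members, up to 3 highest and 3 lowest per pathway list past 1 log2 unit, and the 10 with the highest likeness. Others that are named in counts of 5 or fewer were chosen after their values were seen. Scripts, tested on simulated counts, used Python 3.11.15, numpy 2.4.6, scipy 1.17.1, pandas 2.3.3, scanpy 1.11.5 and matplotlib 3.10.9. Alternatives covered cell filters, doublets, scaling, added CPM, gate thresholds, free RNA and subsets of sorted cells.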

Additional observations from a re-analysis of the deposited data

Results flagged for a closer look

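Some genes differed in direction between comparisons of CTX with naive, and the difference itself was not tested. Values are log2 ratios after subtraction of the median of all genes. Nfkbiz was at -1.83 in sorted monocytes and at 0.26 in the D7 CTX monocyte gate of whole BM. Ier3 was at -1.73 in sorted monocytes and 0.80 in that gate. Zfp36 was at -0.66 in sorted monocytes and 0.18 in that gate. Nfkb1 was at 0.50 in mature neutrophils of D2 CTX and -0.48 in those of D7 CTX, which share the naive library.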

How the results depend on the processing

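No paired analysis was possible because each group has 1 library, and no library could be left out for the same reason. Over 608 member ratios under the alternatives, 549 moved by less than counting error, 59 by more, no ratio of 1 log2 unit or more changed sign, and 15 crossed the limit of 1 log2 unit. In sorted CTX 5 of 8 genes were lower under all 10 alternatives, with Nfkbia between -2.28 and -2.24 and Tnf between -1.94 and -1.65. The 6 of 8 higher in sorted naive than in the naive gate were 7 in non-cycling cells. Counts that moved were 1 member apart in the D7 CTX monocyte gate with doublets removed (Ier3, 1.03) in place of 0, 0 members apart in sorted CTX against the D7 CTX gate with the mean of the cells' own CPM in place of 1, and 2 members lower in D7 CTX mature neutrophils with the gate threshold doubled (Ier3 at -1.17 beside Nfkbiz) in place of 1. In non-cycling sorted cells over the D7 CTX gate, Zfp36 at 1.05 was 1 member higher and Ier3 at -0.58 no longer lower. With the erythroid level subtracted, Ier3 in D2 CTX mature neutrophils was at -1.06 in place of -0.57, and Nfkbiz in the D2 CTX monocyte gate at -0.33 in place of 0.67. In that monocyte gate the subtraction put Ier3 at -4.76 in place of 0.49 and Nfkbie at -1.35 in place of -0.60. Nfkbie was at -1.58 there with the gate threshold doubled. Tnf in that gate, at -0.91, went to -1.31 with that threshold and to -1.03 with 0.1 CPM added. It went to -1.11 with at least 500 genes and under 10% mitochondrial UMIs. Between the sorted libraries, genes at least 1 log2 unit higher numbered 5 with scaling by the median of gene ratios and 39 without a filter on low genes in place of 8, and genes lower numbered 101 without it in place of 45. The causes were not tested. Of the 10 genes most like the members, 2 (Cd53 and Arhgap15) remained among the 10 highest with units of at least 100 cells and 1 CPM added. The monocyte gate applied to sorted cells and the non-cycling sorted cells were alternatives chosen after seeing the data. Tnf, with 9.57 CPM or less in the naive and D2 CTX monocyte gates, is limited by depth there.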
